A study of Mus musculus with 18 samples.

Results

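The 36 genes described here encode proteins that copy DNA or divide the cell, and their RNA serves as a readout of cycling cells in a culture of postmitotic neurons. They were taken from a list of gene symbols, 24 that act in mitosis and 12 that act around DNA replication (S phase). All 36 were measured, of 18191 genes on the array. Where several probe sets read a gene, the gene was represented by the one of highest mean across the 18 arrays.

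The arrays carry RNA of spinal motoneurons isolated from E12.5 mouse embryos. They were enriched by p75 panning and cultured in microfluidic chambers for 7 days, in which axons grow through narrow channels into a separate compartment. In all groups CNTF (5 ng/ml) was present in both compartments and BDNF (20 ng/ml) in the axonal one alone, in medium with horse serum. From each of the somatodendritic compartment (cell bodies and dendrites) and the axonal compartment there were 3 arrays of untreated wild-type cultures, 3 of cultures given an empty lentiviral vector and 3 of cultures whose lentivirus carried an shRNA against Smn. The labels give no strain and do not say that replicates were independent cultures. P-values therefore reflect the scatter among arrays, part of which may be technical.

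Neurons leave the cell cycle before they mature, whereas glial precursors, astroglia, microglia and mesenchymal cells can go on dividing in culture. In S phase the Mcm2 to Mcm7 helicase unwinds DNA, the Pcna ring holds the polymerase on its template, and ribonucleotide reductase (Rrm1, Rrm2) supplies deoxynucleotides. Mitosis is driven by Cdk1 with cyclins A and B, checked at the kinetochores by the spindle checkpoint, and ended when Cdc20 directs the anaphase-promoting complex to destroy cyclin B. Genes of G2 and mitosis are typically controlled through CCAAT boxes and a cell cycle genes homology region (CHR) close to the transcription start, and genes of G1 and S phase through E2F sites.

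Promoter sequences are shown for 4 mitotic and 4 S-phase genes to display those elements in the genes whose values follow. They span 160 bases before to 50 bases after the RefSeq transcription start (build GRCm38.p6), read 5′ to 3′ on the strand of the gene. Capitals mark the letters searched for, on either strand. CCAAT is the box of that name, which reads ATTGG when it lies on the reverse strand. The CHR was searched as TTTGAA and also in the form TTTAAA. The E2F site was searched as TTTGGCG, with the further variants TTTCCCG, then also TTTCGCG, and lastly the variant TTTGCCG. These E2F forms can overlap one another.
Cdk1, chr10:69352863-69353072, minus strand: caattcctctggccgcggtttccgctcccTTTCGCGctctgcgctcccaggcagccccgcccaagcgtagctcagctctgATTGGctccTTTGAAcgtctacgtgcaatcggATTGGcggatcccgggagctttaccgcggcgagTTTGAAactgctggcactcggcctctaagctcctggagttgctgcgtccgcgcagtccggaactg
Ccnb2, chr9:70421505-70421714, minus strand: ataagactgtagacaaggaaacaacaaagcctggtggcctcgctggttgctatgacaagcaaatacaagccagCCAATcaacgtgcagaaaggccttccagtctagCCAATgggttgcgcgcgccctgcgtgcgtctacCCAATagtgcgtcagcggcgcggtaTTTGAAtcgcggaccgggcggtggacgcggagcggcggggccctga
Cdc20, chr4:118437294-118437503, minus strand: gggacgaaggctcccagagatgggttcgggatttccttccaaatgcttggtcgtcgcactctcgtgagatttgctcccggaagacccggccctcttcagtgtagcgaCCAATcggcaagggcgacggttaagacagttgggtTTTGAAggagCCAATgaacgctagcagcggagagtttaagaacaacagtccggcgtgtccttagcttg
Bub1, chr2:127831810-127832019, minus strand: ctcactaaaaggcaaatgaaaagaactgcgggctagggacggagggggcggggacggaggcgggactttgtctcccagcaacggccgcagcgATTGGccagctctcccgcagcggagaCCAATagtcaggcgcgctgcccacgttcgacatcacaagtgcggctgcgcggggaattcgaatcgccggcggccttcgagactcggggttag
Mcm5, chr8:75109349-75109558, plus strand: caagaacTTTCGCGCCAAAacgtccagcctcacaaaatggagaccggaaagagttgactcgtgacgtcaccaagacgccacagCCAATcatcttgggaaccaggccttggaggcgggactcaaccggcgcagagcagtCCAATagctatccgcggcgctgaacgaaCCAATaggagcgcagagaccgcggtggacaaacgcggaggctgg
Mcm6, chr1:128359656-128359865, minus strand: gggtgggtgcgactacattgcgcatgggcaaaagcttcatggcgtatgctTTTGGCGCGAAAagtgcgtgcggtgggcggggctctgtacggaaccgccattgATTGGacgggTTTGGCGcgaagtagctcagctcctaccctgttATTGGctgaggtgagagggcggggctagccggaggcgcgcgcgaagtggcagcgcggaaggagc
Rrm2, chr12:24708094-24708303, plus strand: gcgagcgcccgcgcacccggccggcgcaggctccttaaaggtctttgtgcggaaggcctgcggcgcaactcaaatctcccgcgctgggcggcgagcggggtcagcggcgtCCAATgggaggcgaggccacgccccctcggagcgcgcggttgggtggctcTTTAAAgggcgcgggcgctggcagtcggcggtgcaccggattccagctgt
Ccne1, chr7:38107441-38107650, minus strand: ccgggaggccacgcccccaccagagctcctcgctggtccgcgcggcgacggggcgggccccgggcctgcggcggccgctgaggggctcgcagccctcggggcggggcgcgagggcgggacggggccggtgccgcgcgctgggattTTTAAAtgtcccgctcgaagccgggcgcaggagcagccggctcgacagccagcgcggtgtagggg

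A promoter window of 300 bases, from 250 before to 50 after the start, was at hand for 30 of the 36 genes (20 mitotic, 10 S-phase). A CHR form was found in 17 of the 20 mitotic windows (85%), in 4 of the 10 S-phase windows (40%) and in 27.6% of all 32851 windows. CCAAT was found in 17 of 20 mitotic windows (85%), 8 of 10 S-phase windows (80%) and 37.4% of all. An E2F form was found in 4 of 20 mitotic windows (20%), 4 of 10 S-phase windows (40%) and 6.7% of all. In the stretches above, Cdk1, Ccnb2 and Cdc20 hold both CCAAT and TTTGAA, Mcm5 and Mcm6 hold overlapping E2F forms, and Ccne1 holds 1 TTTAAA. A match of letters describes the sequence and not a bound site.

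Values are log2 expression as deposited, and were brought to a common distribution separately in each compartment. Probe sets of genes such as olfactory receptors gave the background level of each array, and a gene counts as above background in a group if all 3 arrays read higher than that. This level lay between 6.35 and 6.54 on the somatodendritic and between 6.52 and 7.58 on the axonal arrays. Of 18191 genes, 9936 to 10319 exceeded it on a somatodendritic array and 5145 to 9691 on an axonal array. Correlations between arrays of a group were 0.994 to 0.997 in the somatodendritic and 0.744 to 0.902 in the axonal compartment. The probe set of the targeted gene, Smn1, lay below background on all 9 somatodendritic arrays (4.86 to 5.38) and on 8 of 9 axonal arrays, so it gave no check of the knockdown. The general neuronal markers were above background in all somatodendritic groups (10 of 10), whereas of 10 motoneuron markers 3 were (Foxp1, Prph, Slit2). The cholinergic genes Chat, Slc18a3 and Slc5a7 and the transcription factor gene Mnx1 were not above background in any group.

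In the somatodendritic compartment the mitotic and S-phase genes were expressed in control cultures and were lower after Smn knockdown. The question of this comparison is how depletion of Smn, a protein of RNP assembly whose shortage causes spinal muscular atrophy, changes the RNA of the cell body compartment. Against empty vector 21 of 24 mitotic genes fell (limma, Benjamini-Hochberg adjusted p under 0.05), with 15.5% of all genes called lower. None of the 24 rose, with 2267 of all 18191 genes called higher and 28% called in either direction. Of the 12 S-phase genes 7 fell and 0 rose. The median log2 difference was -1.15 over the mitotic and -0.58 over the S-phase genes, beside -0.02 over all genes tested. For 22 mitotic and 9 S-phase genes the knockdown and empty vector arrays did not overlap, with 23.6% of all genes lower in this way. With dim groups set at the background level the mitotic median was -1.09. The mean level of the mitotic genes was 7.87 ± 0.20 (SD, n = 3) in wild-type, 7.79 ± 0.18 in empty vector and 6.65 ± 0.17 in knockdown arrays. Their knockdown arrays all lay below the control arrays. The mean of the S-phase genes was 9.12 ± 0.12, 9.06 ± 0.11 and 8.41 ± 0.12. Mitotic genes above background numbered 16 in wild-type, 17 in empty vector and 12 in knockdown cultures, and S-phase genes 10, 11 and 10. The shares of all genes above background were 53.3%, 53.4% and 53.6%. In RNA of a whole compartment, fewer dividing cells and less RNA per dividing cell cannot be told apart. With all 18 arrays in 1 fit, in which the wider spread of the axonal arrays enters the error, 0 of the 36 genes were called against empty vector (0.566% of all genes) and 1 against wild-type (0.792% of all genes), at the same log2 differences.

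**Figure D1:**
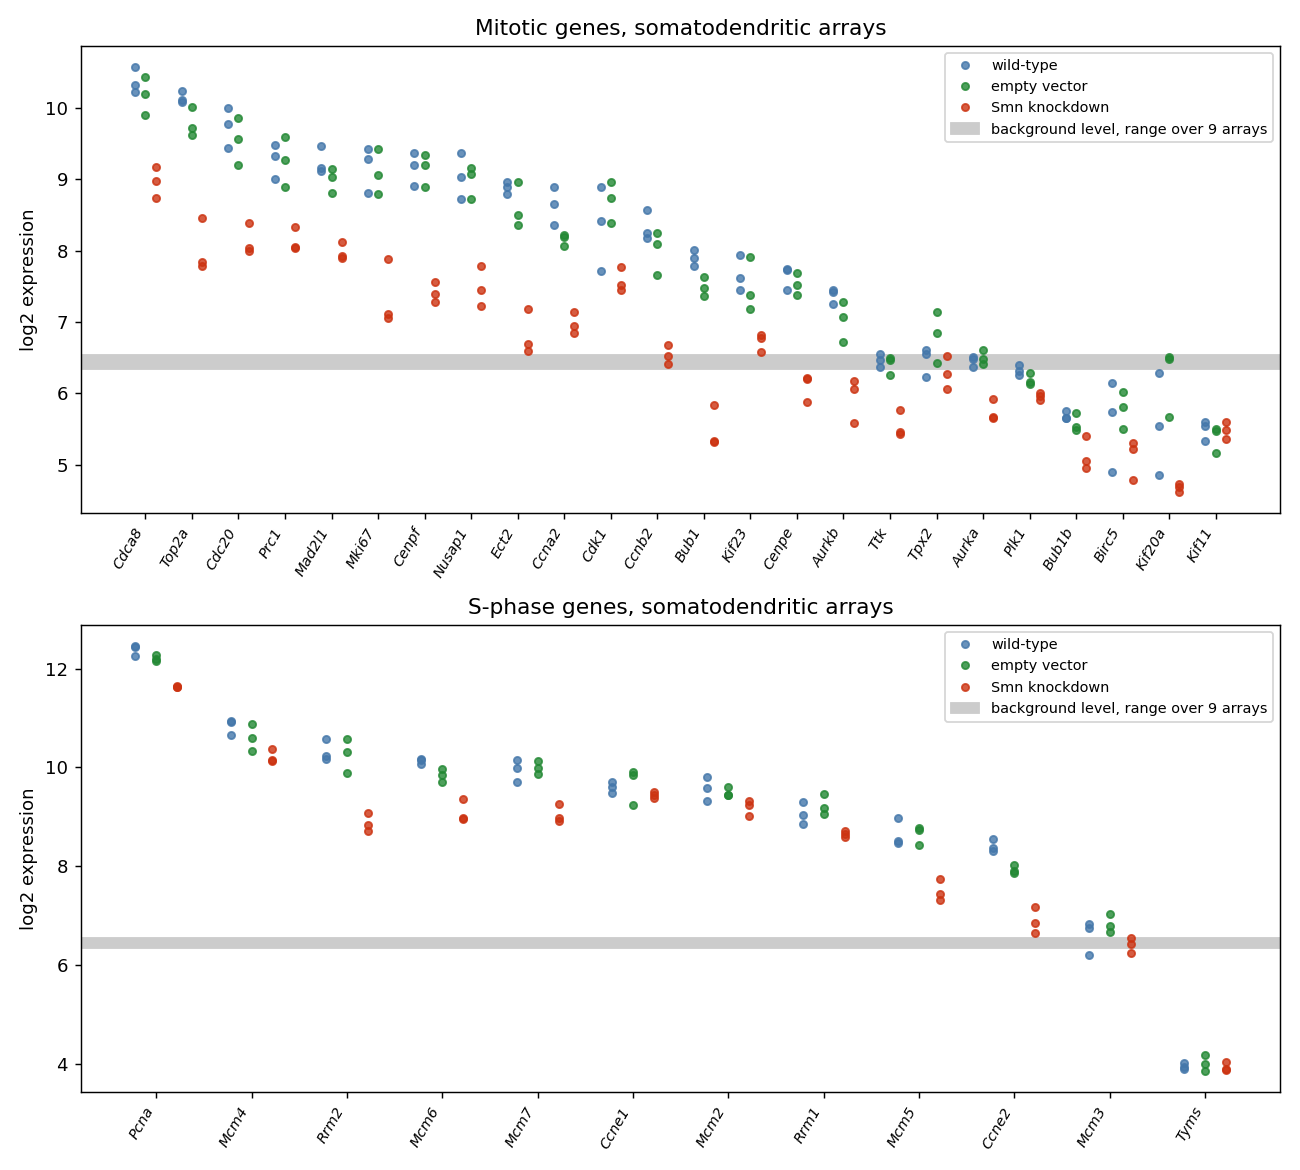
Log2 expression of the 24 mitotic (top) and 12 S-phase genes (bottom) on the 9 somatodendritic arrays, 1 point per array, coloured by group, ordered by wild-type mean, with the range of background levels in grey. For 22 mitotic and 9 S-phase genes all 3 knockdown points lie below all 3 empty vector points.

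Among the drivers of mitosis, Cdk1, the kinase that starts mitosis, measured 8.42, 7.72 and 8.90 on the wild-type arrays, 8.74, 8.97 and 8.40 on the empty vector arrays and 7.52, 7.45 and 7.77 on the knockdown arrays. All knockdown values lay below those of the empty vector arrays, while wild-type replicate 2 lay within the knockdown range. Cdk1 was 2.18-fold lower than with empty vector (log2 difference -1.12, SE 0.24, adjusted p = 0.00368). Cyclin B2 (Ccnb2), its mitotic partner, measured 8.24, 8.17 and 8.57 on the wild-type arrays, 8.09, 8.24 and 7.65 on the empty vector arrays and 6.41, 6.52 and 6.68 on the knockdown arrays. The knockdown arrays lay below all control arrays and near background, so that Ccnb2 was at least 2.75-fold lower than with empty vector (log2 -1.46, SE 0.15, adjusted p = 2.1e-05). Cyclin A2 (Ccna2), which acts in S phase and G2, was 2.27-fold lower (log2 -1.18, SE 0.13). Cdc20, the activator of the anaphase-promoting complex, was 2.64-fold lower (log2 -1.40, SE 0.18). Of the mitotic kinases, Aurkb was at least 1.52-fold lower and Aurka at least 1.06-fold, with log2 differences of -1.08 (SE 0.16) and -0.75 (SE 0.10). Plk1 was below background in all 3 groups and missed the threshold (-0.23, SE 0.08, adjusted p = 0.0548).

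The spindle checkpoint delays anaphase until all chromosomes are attached. Its kinase Bub1 had the lowest p of the mitotic genes and measured 7.78, 8.01 and 7.90 on the wild-type arrays, 7.48, 7.63 and 7.36 on the empty vector arrays and 5.34, 5.32 and 5.84 on the knockdown arrays. Knockdown arrays were below background and all control arrays above it, with a log2 difference of -1.99 (SE 0.14, adjusted p = 6.32e-07), which is at least 2.10-fold against the background level. Mad2l1, the checkpoint protein that holds Cdc20 inactive, was 2.02-fold lower (log2 -1.01, SE 0.12). Ttk (-0.86, SE 0.11) and Bub1b (-0.44, SE 0.12) also fell on the log2 scale, both without a group fully above background and hence without a fold.

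The kinetochore genes followed the same direction. Cenpf, a large protein of the outer kinetochore, measured 9.21, 8.91 and 9.37 on the wild-type arrays, 9.21, 9.35 and 8.89 on the empty vector arrays and 7.40, 7.28 and 7.56 on the knockdown arrays. The knockdown arrays lay below all control arrays, and Cenpf was 3.34-fold lower than with empty vector (log2 -1.74, SE 0.14, adjusted p = 2.75e-06). Cenpe, the kinesin that moves chromosomes to the spindle equator, measured 7.74, 7.45 and 7.73 on the wild-type arrays, 7.52, 7.69 and 7.38 on the empty vector arrays and 6.21, 5.88 and 6.21 on the knockdown arrays. It passed below background in knockdown cultures and was at least 2.16-fold lower (log2 -1.44, SE 0.12, adjusted p = 4.51e-06).

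Of the chromosomal passenger genes, Cdca8 (borealin) averaged 10.38 in wild-type cultures and was 2.32-fold lower after knockdown (log2 -1.21, SE 0.15). Birc5 (survivin), below background in every group, was not called (-0.67, SE 0.26, adjusted p = 0.0739). Among the proteins of the spindle midzone and cytokinesis, Ect2, the exchange factor that sets the cleavage furrow, was 3.44-fold lower (log2 -1.78, SE 0.17). Nusap1 was 2.82-fold and the microtubule bundler Prc1 2.16-fold lower. The kinesin Kif23 of the central spindle was 1.70-fold lower (log2 -0.77, SE 0.17), and Kif20a fell by 1.54 on the log2 scale (SE 0.30) without a group above background. Tpx2, which activates Aurora A, fell by 0.52 (SE 0.17, adjusted p = 0.0422) with overlapping arrays. Kif11, the motor that separates the spindle poles, was the only mitotic gene at a positive difference (0.10, SE 0.11, adjusted p = 0.565), on a probe set below background in all groups. With another of its probe sets, the one with the highest somatodendritic mean, the difference was -0.98 and was called.

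Mki67 and Top2a encode proteins that act on the chromosomes themselves. Ki-67 (Mki67), the coat of mitotic chromosomes and a usual marker of cycling cells, measured 9.28, 8.80 and 9.43 on the wild-type arrays, 9.07, 9.42 and 8.79 on the empty vector arrays and 7.11, 7.06 and 7.88 on the knockdown arrays. Every knockdown array lay below every control array, at a 3.35-fold lower level (log2 -1.74, SE 0.23, adjusted p = 0.00013). Topoisomerase II alpha (Top2a), which untangles sister chromatids, measured 10.24, 10.09 and 10.11 on the wild-type arrays, 9.72, 10.02 and 9.63 on the empty vector arrays and 7.84, 7.79 and 8.46 on the knockdown arrays. It was 3.39-fold lower than with empty vector (log2 -1.76, SE 0.16, adjusted p = 7.96e-06) and 4.35-fold lower than in wild-type cultures.

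All 12 S-phase genes were at negative differences from empty vector, from -1.37 to -0.08, and 7 of them passed the test. Ribonucleotide reductase M2 (Rrm2), its cell cycle regulated subunit, measured 10.22, 10.16 and 10.57 on the wild-type arrays, 10.30, 10.57 and 9.89 on the empty vector arrays and 8.84, 8.72 and 9.09 on the knockdown arrays. The knockdown arrays lay below all others, and Rrm2 was 2.59-fold lower (log2 -1.37, SE 0.17, adjusted p = 7.12e-05), while the large subunit Rrm1 was 1.50-fold lower (log2 -0.58, SE 0.13). Tyms, the thymidylate synthase, was read at 3.85 to 4.18 on all 9 arrays, below background, and carried no measurable level.

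The 6 helicase genes, whose products form 1 ring, did not differ by equal amounts. Mcm5 measured 8.50, 8.47 and 8.97 on the wild-type arrays, 8.73, 8.77 and 8.43 on the empty vector arrays and 7.44, 7.30 and 7.73 on the knockdown arrays. It was 2.22-fold lower (log2 -1.15, SE 0.15, adjusted p = 0.000135), ahead of Mcm7 (1.93-fold) and Mcm6 (1.67-fold). Mcm2 measured 9.59, 9.31 and 9.81 on the wild-type arrays, 9.45, 9.61 and 9.44 on the empty vector arrays and 9.01, 9.23 and 9.31 on the knockdown arrays. Its knockdown arrays lay below the empty vector arrays by a smaller margin, and the log2 difference of -0.32 (SE 0.13) did not pass the test (adjusted p = 0.0856), nor did those of Mcm3 (-0.43, SE 0.16) and Mcm4 (-0.38, SE 0.14). Against wild-type Mcm2 fell by 0.39 (adjusted p = 0.0313), but its other probe set, with group means of 6.53 in knockdown and 5.80 in wild-type cultures, gave a rise of 0.73 (adjusted p = 0.0255). In this comparison it was the only one of the 36 genes with opposite calls from its probe sets.

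Pcna, the sliding clamp, measured 12.44, 12.26 and 12.45 on the wild-type arrays, 12.28, 12.20 and 12.16 on the empty vector arrays and 11.64, 11.62 and 11.64 on the knockdown arrays. The spread within groups was small, and a 1.49-fold lower level was called (log2 -0.58, SE 0.08, adjusted p = 0.000264). The E cyclins, which open S phase with Cdk2, differed from each other. Ccne2 measured 8.36, 8.55 and 8.30 on the wild-type arrays, 8.02, 7.89 and 7.87 on the empty vector arrays and 6.85, 6.65 and 7.17 on the knockdown arrays, and was 2.05-fold lower (log2 -1.03, SE 0.12, adjusted p = 6.62e-05). Ccne1 measured 9.71, 9.47 and 9.60 on the wild-type arrays, 9.84, 9.23 and 9.90 on the empty vector arrays and 9.50, 9.43 and 9.39 on the knockdown arrays. These values overlapped in all groups, with a difference of -0.22 (SE 0.15, adjusted p = 0.325).

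**Figure D2:**
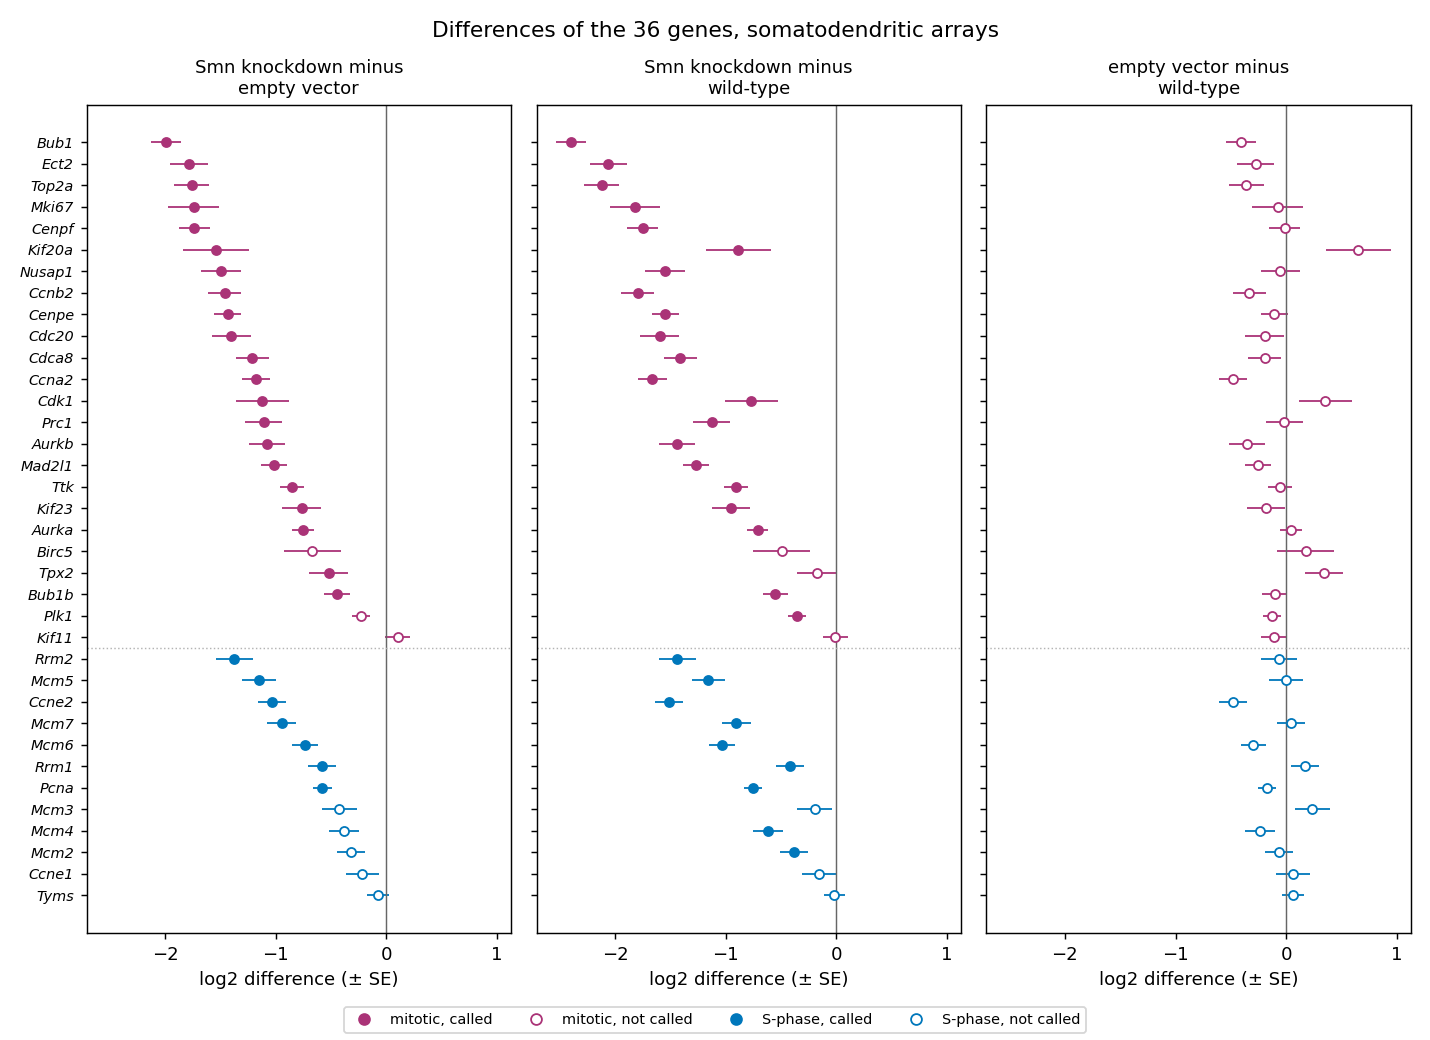
Log2 differences with their standard error for the 36 genes in 3 somatodendritic comparisons, ordered within each class by the difference between knockdown and empty vector. Filled points passed the test (limma, adjusted p under 0.05). Nearly all points of both knockdown panels lie left of 0, and the empty vector panel has 0 filled points.

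Against wild-type cultures 21 of 24 mitotic genes fell (median log2 difference -1.34) and 9 of 12 S-phase genes (median -0.69), with 20.4% of all genes called lower. None of the 36 rose, with 15.6% of all genes called higher. This comparison shares its knockdown arrays with the preceding one. Bub1 (-2.40, SE 0.14, adjusted p = 1.9e-07) and Top2a (-2.12, SE 0.16, adjusted p = 1.7e-06) had the lowest p of the mitotic genes, and Ccne2 (-1.51, SE 0.12, adjusted p = 2.91e-06) and Pcna (-0.75, SE 0.08, adjusted p = 2.71e-05) of the S-phase genes. Plk1 (-0.36), Mcm2 (-0.39) and Mcm4 (-0.62) passed here and not against empty vector, and Tpx2 (-0.18, adjusted p = 0.471) the other way round.

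The empty vector alone did not move the 36 genes past the threshold. Against wild-type 0 of 24 mitotic and 0 of 12 S-phase genes were called by limma, with 2% of all genes called in either direction. At an unadjusted p under 0.05, which 17.3% of all genes reached, there were 6 mitotic genes (Ccna2, Bub1, Top2a, Ccnb2 and Aurkb at negative differences, Kif20a at a positive one) and 2 S-phase genes (Ccne2, Mcm6). Medians were -0.11 and -0.03. The lowest p belonged to Ccne2 (-0.48, SE 0.12, adjusted p = 0.0787) and Ccna2 (-0.48, SE 0.13, adjusted p = 0.0848). Leaving out wild-type replicate 3 brought 1 gene of each class past the threshold, and leaving out wild-type replicate 2 brought 1 mitotic gene.

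The same genes were also read by probe sets other than the representative ones. Of 25 such probe sets of mitotic genes 17 were lower after knockdown than with empty vector, and of 21 of S-phase genes 8 were, with 0 higher. Over all genes, at 1 probe set per gene, 15.5% were called lower. Against wild-type 14 of the 25 and 5 of the 21 were lower, and 1 probe set of an S-phase gene was higher. The counts that follow are again against empty vector. With the representative ones included, the counts were 38 of 49 and 15 of 33. Against empty vector no gene had probe sets called in opposite directions.

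Other genes of the pathway, from wider lists, were read in the same fit. Of 47 other mitotic genes 39 fell and 0 rose after knockdown against empty vector, with a median of -0.75. Of all 18191 genes 15.5% were called lower and 2267 genes higher. In this list 16 genes were dim in both groups, and with dim groups set at the background level the median was -0.49. The cytokinesis scaffold gene Anln (-2.03, SE 0.15, adjusted p = 1.68e-06), the spindle pole gene Aspm (-1.70, SE 0.13, adjusted p = 1.97e-06) and the Cdk-binding subunit gene Cks2 (-1.74, SE 0.14, adjusted p = 2.32e-06) had the lowest p. The differences of this list ran from -2.03 to 0.21.

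Of 30 other S-phase genes 16 fell and 3 rose, with a median of -0.39 and a range of -1.19 to 0.77. Of these 8 were dim in both groups, and with dim groups set at the background level the median was -0.20. Among all 18191 genes 2821 fell and 2267 rose. The lowest p belonged to the origin recognition subunit gene Orc6 (-0.93, SE 0.08), the fork protection gene Tipin (-0.95, SE 0.09) and the clamp loader gene Rfc4 (-0.87, SE 0.08). The 3 that rose, named after their values were seen, were the transcription factor gene E2f1 (0.77, SE 0.12, at least 1.71-fold), the histone stem-loop binding gene Slbp (0.54, SE 0.08) and the DNA ligase gene Lig1 (0.44, SE 0.10).

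Among 21 regulators of G1 and of cell cycle exit 7 fell and 2 rose, with a median of -0.19 and a range of -1.36 to 1.20. Of all 18191 genes 2267 rose in this comparison. The rises in this list were the Cdk inhibitor genes Cdkn2d (p19, 2.30-fold, log2 1.20, SE 0.11, adjusted p = 6.36e-06) and Cdkn1a (p21, 1.61-fold, log2 0.68, SE 0.09, adjusted p = 0.000107). Other Cdk inhibitor genes of the list did not rise. The dim Cdkn2b fell by 0.59 (SE 0.09, adjusted p = 0.000461), and Cdkn2c (-0.27), Cdkn1b (-0.27), Cdkn1c (-0.12) and the dim Cdkn2a (-0.12) were not called. The pocket protein gene Rbl1 (p107) fell by 1.36 on the log2 scale (SE 0.12, adjusted p = 8.16e-06).

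Markers of cell types that can divide were followed beside these genes. Of 8 markers of oligodendrocyte precursors 7 fell against empty vector, with Olig1 at -2.04 (SE 0.26, 4.13-fold), Olig2 at -1.75 (SE 0.25, at least 3.36-fold) and the dim Sox8 at -0.91. The mean of this list lay between 8.22 and 8.56 on the wild-type, 7.78 and 8.41 on the empty vector and 6.59 and 7.37 on the knockdown arrays. Of 10 astroglial markers 7 fell, with Aqp4 at -1.40 (SE 0.19), Gja1 at -1.32 (SE 0.20) and Aldoc at -0.64 (SE 0.10), and list means of 8.75 to 8.82, 8.71 to 8.91 and 8.06 to 8.49. Of 10 neural progenitor markers 4 fell, among them Notch1 (-1.23, SE 0.19), Sox2 (-0.92, SE 0.16) and Sox9 (-0.43, SE 0.11). Their list means were 9.06 to 9.29, 9.14 to 9.31 and 8.69 to 8.98.

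The smooth muscle and pericyte list fell for 3 of 5 genes, and Acta2, smooth muscle actin, had the largest difference in these lists (-4.48, SE 0.33, 22.3-fold), followed by Tagln (-1.38) and the dim Myl9 (-0.89). Its mean was 6.79 to 7.20, 6.91 to 7.47 and 5.61 to 6.00. Fibroblast and meningeal markers gave 1 rise and 1 fall in 10, endothelial markers 1 fall in 8 and Schwann cell markers 1 fall in 5, beside 15.5% of all genes called lower. The Schwann cell marker that fell, Sox10 (-0.62, SE 0.17), is also among the 7 oligodendrocyte precursor markers that fell.

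Microglial and macrophage markers differed from the cell cycle genes in both comparisons. Against empty vector 11 of 12 rose after knockdown, led by Tyrobp (2.91, SE 0.11), Laptm5 (3.59, SE 0.16) and Ptprc (3.30, SE 0.15). Between empty vector and wild-type cultures 8 of 12 were lower with the vector, while 0 of the 36 cell cycle genes were called there by limma. Their mean was 7.50 to 7.57 on wild-type, 5.77 to 6.04 on empty vector and 7.83 to 8.17 on knockdown arrays. General neuronal markers had mean levels of 10.93, 11.13 and 11.14, with 1 of 10 higher (Gap43, 1.00) and 4 lower after knockdown, among them Rbfox3 (-0.57) and Nefl (-0.46). Of the motoneuron markers Foxp1 (-0.81) and Slit2 (-0.53) fell and the dim Isl2 rose (0.34). The motoneuron list averaged 6.31 to 6.39 on wild-type, 6.20 to 6.34 on empty vector and 6.13 to 6.15 on knockdown arrays. The part of each cell type in the cell cycle difference was not tested.

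The difference between the Gapdh probe sets at the 3′ and 5′ ends, which widens as RNA shortens, ranged on the log2 scale from 3.11 to 3.61 over the wild-type, from 3.53 to 3.68 over the empty vector and from 3.99 to 4.12 over the knockdown arrays. Knockdown arrays were also numbered by another scheme in their titles than control arrays. The part of either in the somatodendritic result was not tested.

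**Figure D3:**
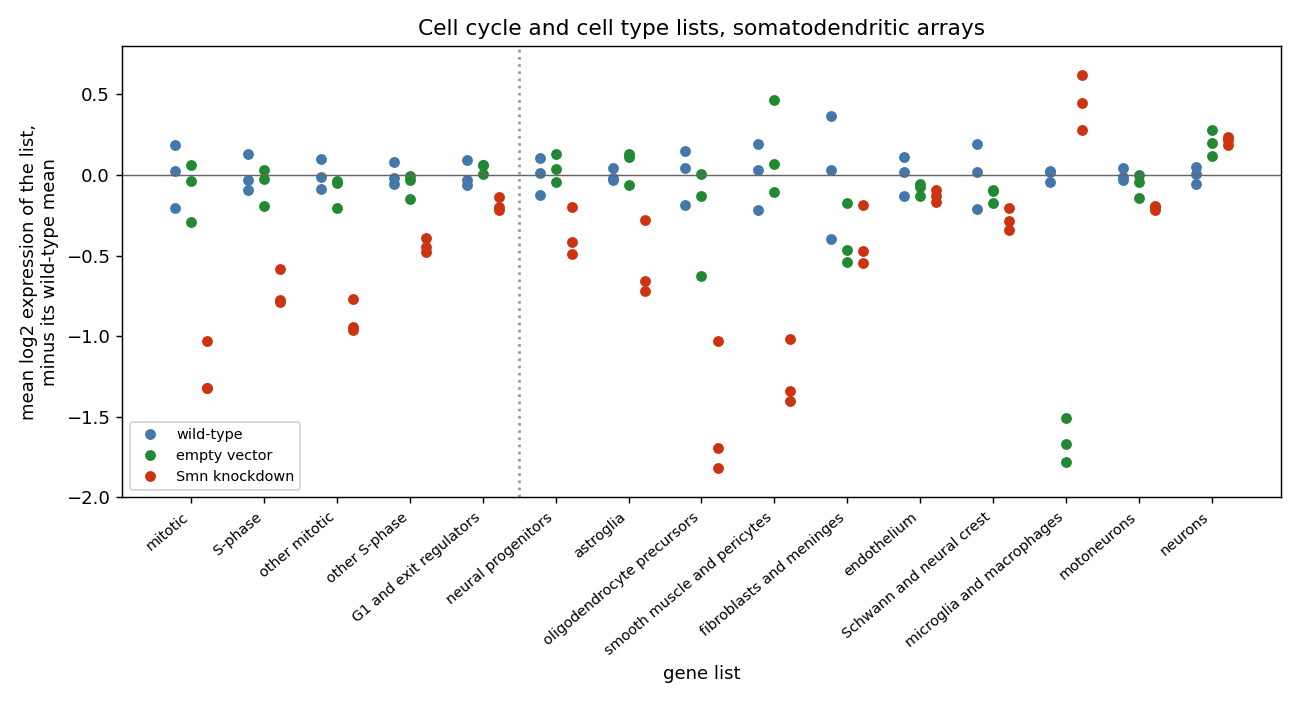
Mean log2 expression of each gene list on the 9 somatodendritic arrays, minus the mean of its 3 wild-type arrays, 1 point per array. Knockdown points lie below both control groups for every cell cycle list, the G1 and exit regulators included. They also do so for progenitor, astroglial, oligodendrocyte precursor and smooth muscle markers and, by a small margin, for motoneuron markers. For microglia and macrophages they lie above both.

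Axonal RNA gave another picture. Mitotic genes were mostly not above background: 0 of 24 passed on all 3 wild-type arrays, 1 with empty vector and 1 with knockdown, and of the S-phase genes 7, 4 and 4. The share of all genes that passed also fell across these groups, at 37.6%, 28.7% and 19.3%. In the averaged control arrays 18 of 24 mitotic genes were lower in axonal than in somatodendritic RNA, with 25.9% of all genes called lower, and 2 were higher (Plk1 and Bub1b, neither above background on all control arrays of either compartment), with 35.7% of all genes called higher. Of the S-phase genes 9 were lower and 1 (the dim Tyms) was higher. Medians were -1.78 and -1.39, beside 0.18 over all genes. The compartments had been normalized apart, so this comparison is of levels within 2 distributions. When all 18 arrays were brought to 1 distribution the median over all genes became 0.20 and the S-phase count, 10 in both directions together, became 2. Without axonal wild-type replicate 3 or axonal empty vector replicate 1 the S-phase count was 6.

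Cdca8 had the largest difference between compartments among the mitotic genes (-3.72, SE 0.59, at least 11.2-fold) and Ccne2 among the S-phase genes (-3.69, SE 0.25, at least 2.59-fold). The bound for Cdca8 places the axonal controls as a group at the background level and does not hold for each array. Cdca8 read 9.73 on axonal empty vector replicate 3, beside 9.91 on somatodendritic empty vector replicate 3. It was also above background on axonal wild-type replicate 1 (6.89). Pcna remained above background on all 9 axonal arrays and measured 11.11, 11.03 and 10.13 on the wild-type, 9.18, 8.50 and 10.72 on the empty vector and 8.84, 8.41 and 9.43 on the knockdown arrays. The knockdown arrays lay below the wild-type arrays, and Pcna was 4.55-fold lower in axonal than in somatodendritic controls (log2 -2.19, SE 0.31). Ccne1, also above background on all 9 arrays, measured 8.35, 8.28 and 8.51 on the wild-type, 8.14, 9.44 and 8.99 on the empty vector and 8.67, 9.48 and 9.22 on the knockdown arrays. It was 2.01-fold lower than in the somatodendritic controls (log2 -1.01, SE 0.21). Mcm5 was above background on all 9 axonal arrays as well, narrowly so on empty vector replicate 1 (6.93 against a level of 6.88).

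Several genes were bright on single axonal arrays and below background on others of the same group. Rrm2 measured 3.90, 10.21 and 3.70 on the wild-type, 3.67, 9.06 and 11.45 on the empty vector and 3.92, 3.58 and 3.88 on the knockdown arrays. It was above background on wild-type replicate 2 and on empty vector replicates 2 and 3 and lay between 3.58 and 3.92 on the other 6. Mcm4 measured 9.59, 8.62 and 6.78 on the wild-type, 3.81, 5.41 and 11.19 on the empty vector and 4.58, 5.62 and 10.83 on the knockdown arrays, and Mcm6 measured 9.03, 8.56 and 5.57 on the wild-type, 6.69, 3.89 and 10.29 on the empty vector and 5.43, 5.30 and 9.84 on the knockdown arrays. Among the transduced cultures both were above background only on empty vector replicate 3 and knockdown replicate 3. The median range between 3 arrays of a group was 1.07, 1.87 and 0.85 for mitotic genes in axonal wild-type, empty vector and knockdown arrays, against 0.36, 0.48 and 0.33 in the somatodendritic groups. For all genes it was 0.69, 0.93 and 0.94 in the axonal groups.

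Empty vector replicate 3 stood apart among the axonal arrays. On it 17 of 24 mitotic and 10 of 12 S-phase genes exceeded the background level, while the other 8 axonal arrays had 2 to 7 mitotic and 5 to 9 S-phase genes above it. Of all 18191 genes 9121 exceeded the level on this array, beside 5145 (knockdown replicate 1) to 9691 (wild-type replicate 1) on the others. Cdc20 read 9.42 there and Cdca8 9.73. On wild-type replicate 2, Top2a read 9.44, Nusap1 9.63 and Mad2l1 9.09. The astroglial list averaged 8.01 on that array and 5.72 to 6.92 on the other 8 axonal arrays. On empty vector replicate 3, with the most mitotic genes above background, the astroglial list averaged 6.29 and the oligodendrocyte precursor list 5.95. The smooth muscle and pericyte list averaged 8.02 there, with 3 of its 5 genes above background, and also 8.02 on empty vector replicate 2. The fibroblast and meningeal list averaged 7.35 on empty vector replicate 3, beside 8.20 on wild-type replicate 1. Whether cell bodies or dividing cells contributed RNA to these samples was not tested.

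**Figure D4:**
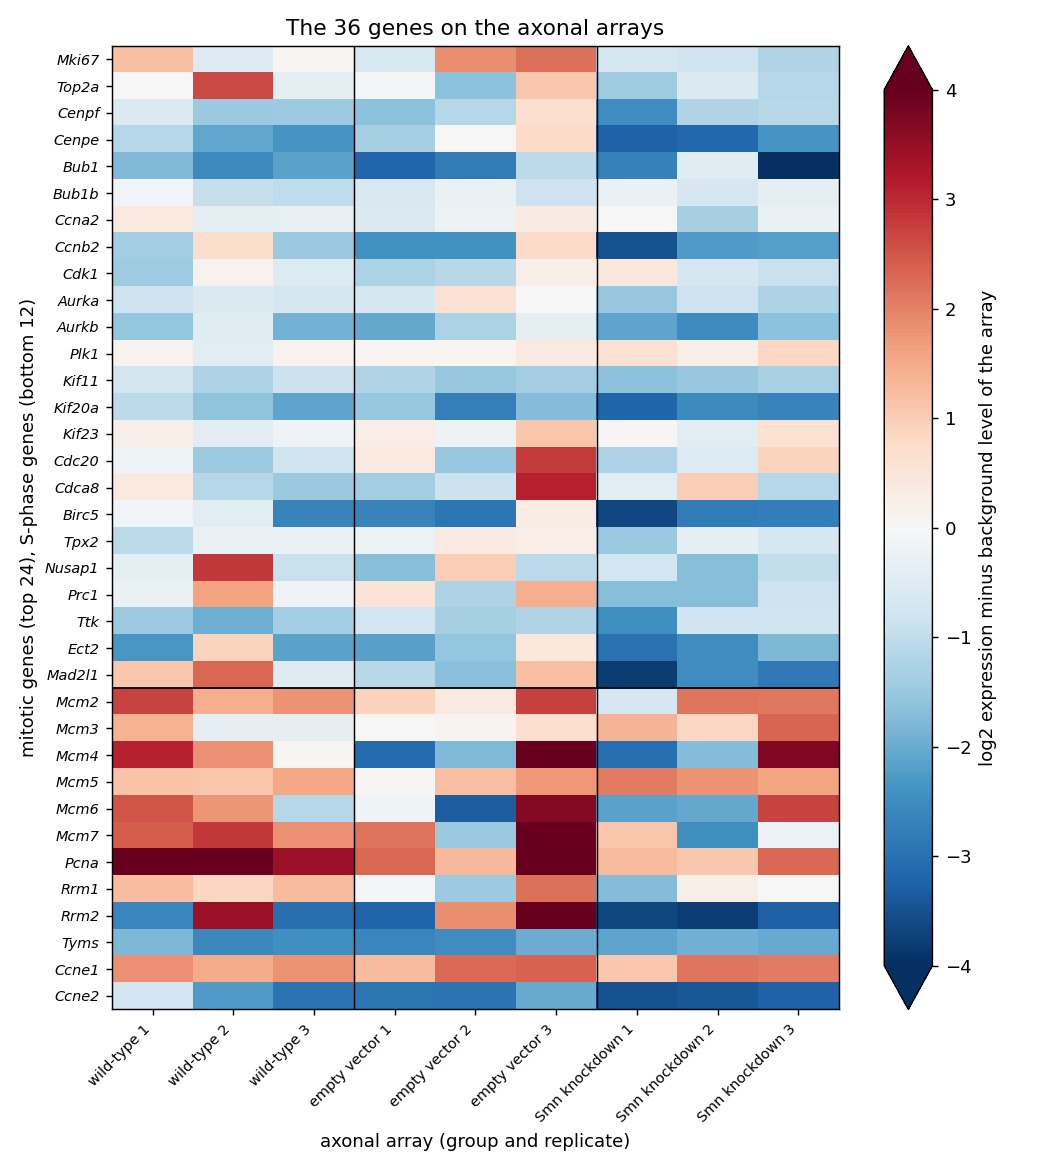
Log2 expression minus the background level of the array for the 36 genes (rows, mitotic above the line) on the 9 axonal arrays (columns), red above and blue below background, with colours saturated at 4. Empty vector replicate 3 has 17 mitotic genes above background and the other columns have 2 to 7. Of all genes, 9121 were above it on that array and 5145 to 9691 on the others. Pcna, Ccne1 and Mcm5 are above background in every column.

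Within the axonal compartment none of the 36 genes was called by limma. After knockdown against empty vector 0.176% of all genes were called in either direction, against wild-type 0.099%, and between empty vector and wild-type 0%. At an unadjusted p under 0.05 there were 3 mitotic and 3 S-phase genes against empty vector, with 18.2% of all genes. Against wild-type there were 4 and 4, with 20.9% of all genes, and between empty vector and wild-type 1 and 0, with 3.31%. With all 18 arrays in 1 fit 3 mitotic and 3 S-phase genes were called against empty vector, with 20.7% of all genes called in that fit. Against wild-type 5 and 4 were called in it, with 24.6% of all genes.

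The differences with the lowest p ran in both directions. Cenpe, at a negative difference from empty vector (-2.26, SE 0.51, adjusted p = 0.0876), was not above background in any axonal group. Mad2l1 differed from wild-type by -3.31 (SE 0.82, adjusted p = 0.0807). It was not above background in any axonal group either, and read 7.60, 9.09 and 6.21 on the wild-type arrays. Plk1 measured 6.66, 6.34 and 6.87 on the wild-type, 6.97, 7.25 and 6.98 on the empty vector and 8.19, 7.59 and 7.95 on the knockdown arrays. All knockdown values lay above all control values, as for 13.3% of all genes against empty vector and 18.8% against wild-type, with a difference of 0.84 from empty vector (SE 0.27, adjusted p = 0.169) and of 1.29 from wild-type (SE 0.27, adjusted p = 0.0663). Mcm3 measured 7.91, 6.43 and 6.34 on the wild-type, 6.87, 7.30 and 7.32 on the empty vector and 8.95, 8.16 and 9.47 on the knockdown arrays, and Mcm5 measured 7.66, 7.89 and 8.26 on the wild-type, 6.93, 8.40 and 8.36 on the empty vector and 9.67, 9.16 and 8.73 on the knockdown arrays. Both had higher values on all knockdown arrays than on all control arrays, with differences from empty vector of 1.70 (SE 0.50, adjusted p = 0.137) and 1.29 (SE 0.46, adjusted p = 0.193).

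The test of whether the knockdown difference differed between compartments called 3 of the 36 genes, Plk1, Mcm3 and Mcm5, with 4.21% of all genes called higher in this term and 2.56% lower. The interaction was 1.07 (SE 0.25, adjusted p = 0.0242) for Plk1, 2.13 (SE 0.54, adjusted p = 0.0335) for Mcm3 and 2.44 (SE 0.50, adjusted p = 0.0135) for Mcm5. For Mcm5 it set an axonal difference of 1.29 against a somatodendritic one of -1.15. With array weights by compartment Mcm5 kept its call (adjusted p = 0.0412) and Plk1 (0.0626) and Mcm3 (0.0874) lost theirs. Without probe sets marked as matching several transcripts the values for Mcm3 and Mcm5 were 0.53 and 0.42 and neither was called. Plk1 lost its call when any 1 of the 6 somatodendritic arrays of this term was left out (adjusted p from 0.0554 to 0.0674), and Mcm3 without any of 10 of the 12 arrays (0.0506 to 0.0852). Mcm5 kept its call without each of the 12. For the other 33 genes the somatodendritic difference was not shown to differ from the axonal one.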

How the data were processed

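RNA from 18 samples was amplified linearly in 2 rounds, labelled with biotin and hybridised to Affymetrix Mouse430_2 arrays, per the labels' protocols. The deposited values are log2 expression on which the authors' normalization had given the arrays of each compartment a common distribution, separately for the compartments (median 5.77 and 5.95). The software was not given in the sources used here. Of 45101 probe sets 34958 named 1 gene, 932 several and 9211 none. Differences were tested with limma 3.58.1 (lmFit, eBayes) in R 4.3.3, with Benjamini-Hochberg adjustment over 18191 genes and a threshold of 0.05, on 9 arrays within a compartment and on all 18 between compartments. SE is limma's. The background level is the 95th percentile of 126 probe sets (olfactory, vomeronasal and taste receptors, keratin-associated proteins). Folds against a group not above it are lower bounds ("at least"), and none is given where both groups are dim. The number of arrays limits precision. Replicates carry the number in the control titles, and knockdown arrays are numbered by accession order. No pairing by these numbers was detected: among 18 correlations of same-numbered control arrays 1 exceeded 0.1 (range -0.19 to 0.23). That one was between somatodendritic wild-type and empty vector arrays of number 1. Most of the 18 involved axonal arrays, whose wide spread can mask a pairing, so its absence was not shown. Values by array were printed for members above background: the 3 of lowest p in each class against empty vector, the 2 brightest axonal ones and a fixed set of others. Axonal values were also printed for the members called in the interaction. Those of Rrm2, Mcm4 and Mcm6 were printed outside this rule, for their brightness on single arrays. Rrm2 and Mcm6 were above background in no axonal group. From each wider list the 3 genes of lowest p were named. The members, lists and tests were chosen with earlier results of these data known. The fitting procedure was tested on simulated data. Alternatives tried were the choice of probe set, a filter on dim genes, the variance prior, the arrays in the fit, scaling, array weights, a replicate block, the background percentile and leaving out each replicate.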

Additional observations from a re-analysis of the deposited data

Results flagged for a closer look

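The interaction term of the fit on 18 arrays called 3 of the 36 genes, at a share near that of all genes (4.21% called higher and 2.56% lower). Plk1 had an interaction of 1.07 (log2, axonal minus somatodendritic), from 0.84 in axonal and -0.23 in somatodendritic RNA. Mcm3 had 2.13, from 1.70 and -0.43. Mcm5 had 2.44, from 1.29 and -1.15. With array weights by compartment the calls of Plk1 and Mcm3 were lost, as they were without any 1 of 6 arrays for Plk1 and of 10 arrays for Mcm3, of 12 left out in turn. Without probe sets marked as matching several transcripts Mcm3 had 0.53 (limma adjusted p = 0.257) and Mcm5 had 0.42 (limma adjusted p = 0.437).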

How the results depend on the processing

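With all 18 arrays in 1 fit, the counts called were 0 mitotic and 0 S-phase genes for somatodendritic knockdown against empty vector, 1 and 0 against wild-type, 3 and 3 for axonal knockdown against empty vector and 5 and 4 against wild-type. This fit pools the spread of both compartments. Leaving out each replicate in turn gave 19 to 21 mitotic and 7 to 8 S-phase genes against empty vector, 19 to 22 and 7 to 10 against wild-type, 0 to 1 of each for empty vector against wild-type (all somatodendritic), 19 to 21 and 6 to 11 for axonal against somatodendritic controls, and 0 to 3 and 1 to 3 for the interaction. Scaling all arrays to 1 distribution left 2 S-phase genes between compartments. The interaction called 2 mitotic genes with the probe set of highest somatodendritic mean and 2 with that of highest interquartile range, 3 without probe sets marked as matching several transcripts and 0 with array weights, and 1, 0 and 1 S-phase genes with the last 3 of these settings. The cause of these moves was not tested.

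Signs turned for few genes. With the probe set of highest interquartile range, differences from empty vector were -0.98 for Kif11 (also with that of highest somatodendritic mean), 0.23 for Mcm2 and 0.13 for Tyms, and 0.73 for Mcm2 from wild-type. Without probe sets marked as matching several transcripts they were 0.23 for Mcm2 and 0.033 for Ccne1 from empty vector, and 0.73 for Mcm2 and 0.020 for Mcm3 from wild-type. Between compartments they were 0.80 for Top2a and 0.50 for Mcm5 in that setting, and -0.69 for Bub1b with either other choice of probe set. Leaving out each replicate gave -0.0046 to 0.17 for Kif11 and -0.16 to 0.010 for Tyms from empty vector, and -0.087 to 0.049 and -0.069 to 0.017 from wild-type.

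A replicate block was also fitted over the control arrays, for whose numbers no pairing was detected. With it 0 and 0 genes were called for empty vector against wild-type in each compartment. Between compartments 20 mitotic and 8 S-phase genes were called, and Mcm6 and Rrm2 lost their calls. At the 90th percentile of background probe sets the axonal wild-type, empty vector and knockdown groups had 7, 3 and 3 mitotic genes above background. At the 99th, empty vector and knockdown had 0 and 0 mitotic and 2 and 0 S-phase genes. Signal near background limits 7 mitotic genes in the somatodendritic comparison with empty vector and 23 in the axonal one, which were dim in both groups.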
